A study of Capra hircus with 13 samples.

Results

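The 9 genes described here are regulators and keratins of the trophectoderm, namely *GATA2*, *GATA3*, *TFAP2A*, *TFAP2C*, *TEAD4*, *CDX2*, *YAP1*, *KRT8* and *KRT18*. They were chosen by name, and all 9 are among the 18138 gene names listed for all 13 goat RNA-seq libraries. Of the 5 groups, 3 hold untreated material, namely MII oocytes, 4-cell and 8-cell stage embryos, with 3 libraries in each. The other groups hold 8-cell stage embryos that were injected as zygotes, 8 h post-IVF, either with negative control (NC) siRNA or with 20 µM of *YTHDF2* siRNA, with 2 libraries per siRNA and 15 pooled embryos per library. *YTHDF2* encodes a reader of m6A, a methylation mark on mRNA. No allele was changed in any group, and the NC and knockdown embryos share the injection. The titles of the NC libraries read WT, their treatment label names the NC siRNA, and its concentration is not given in the sources used here. The untreated libraries come from 2 earlier studies, and which library came from which is not stated, so stage and study cannot be told apart. Nothing states that libraries of a group came from separate cultures, so p-values measure only the spread between these samples.

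The trophectoderm is the outer cell layer of the blastocyst and the first epithelium of the embryo, which later forms the fetal part of the placenta. In outer cells with low Hippo kinase activity the co-activator YAP1 enters the nucleus and, with the DNA-binding factor TEAD4, switches on *CDX2* and *GATA3* in the mouse. TFAP2A and TFAP2C belong to the AP-2 family and GATA2 and GATA3 to the GATA family of zinc finger factors, and both families maintain trophoblast genes. Keratin 8, a type II keratin, pairs with keratin 18, a type I keratin, to build the first intermediate filaments of the embryo. All groups here are earlier than the blastocyst.

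All values are FPKM, fragments scaled by transcript length and by the fragments of the library, as the authors deposited them, so levels of different genes can be compared per length. The untreated libraries held 26853876 to 42495116 fragments. Genes shared by the stage tables held 64.8 to 66.3% of the fragments of the MII libraries and 94.7 to 97.0% of those of the 4- and 8-cell libraries. The MII libraries were listed with 18957 gene rows and those of either embryo stage with 22107. Comparisons with the MII oocytes thus also cross a difference in the genes listed. Log2 values of replicates correlated by 0.971 to 0.987 in the MII oocytes, 0.979 to 0.986 in the 4-cell and 0.921 to 0.980 in the 8-cell stage embryos, where replicate 1 stood apart from replicates 2 and 3, which correlated by 0.980 with each other. Replicates correlated by 0.971 for NC and 0.973 for *YTHDF2* siRNA. The targeted *YTHDF2* was at 112 and 159 FPKM in the NC libraries and at 8.07 and 4.47 FPKM in the knockdown libraries, and its log2 difference in the limma fit was -4.25 ± 0.43 (SE, adjusted p = 0.000367).

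In the untreated material, the 9 genes fell into a detected and a nearly undetected set. *YAP1* was the highest of them at every untreated stage, *GATA3*, *GATA2* and *TFAP2A* lay at a few FPKM or below, *TFAP2C* was close to absent in the MII oocytes and present at the 8-cell stage, and *TEAD4*, *CDX2*, *KRT8* and *KRT18* stayed under 1 FPKM on average at every untreated stage. In the injected 8-cell stage embryos of either siRNA, *TFAP2C* and *KRT8* were instead the highest of the 9 genes, above 89.0% or more of all shared gene names in each of the 4 libraries. Genes averaging 1 FPKM or more across the libraries fitted were tested with limma on log2(FPKM + 1), and a gene was called where the unadjusted p was under 0.05 and the change more than 2-fold, the rule of the study. On this scale the change of a low gene is understated. Of the 9 genes, *GATA2*, *GATA3*, *TFAP2C* and *YAP1* passed the filter in the untreated libraries, and these 4 and *TEAD4*, *KRT8* and *KRT18* passed it in the injected libraries, while *TFAP2A* and *CDX2* passed it in neither.

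**Figure D1:**
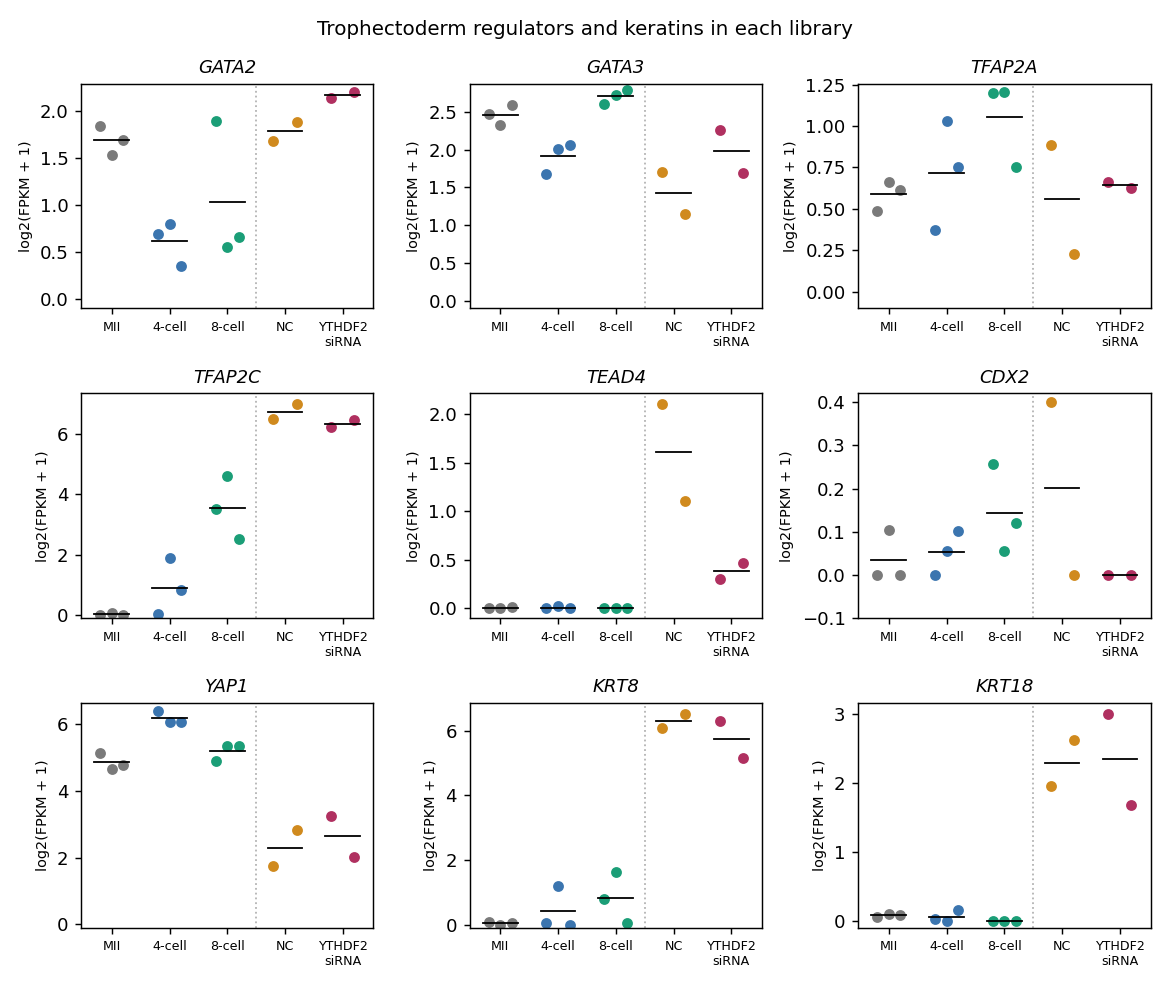
Levels of the 9 genes in each of the 13 libraries, as log2(FPKM + 1) with a separate axis for each gene. Points are libraries, bars are group means, and the dotted line parts the untreated libraries (MII, 4-cell, 8-cell) from the injected 8-cell stage embryos (NC and *YTHDF2* siRNA), whose table was normalized apart. *TFAP2C*, *KRT8*, *KRT18* and *TEAD4* lie higher and *YAP1* lower in both NC libraries than in the 3 untreated 8-cell libraries.

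At the 4-cell stage, *YAP1* was increased and *GATA2* decreased compared to the MII oocytes, which made 2 of the 4 genes tested. Of all 9090 genes tested, 16.7% were called up and 6.06% down in this comparison (15.4 and 5.09% with an adjusted p under 0.05 in the same rule), so with so few genes the count is not a result in itself. At the 8-cell stage *TFAP2C* alone of the 4 was called against the MII oocytes, where 19.8% of all tested genes were called up and 8.14% down (18.5 and 7.58% by the adjusted p). Against the 4-cell stage, again *TFAP2C* alone of the 4 was called at the 8-cell stage, where 4.55% of all tested genes were called up and 4.28% down (2.29 and 3.17% by the adjusted p). *TFAP2C* passed the filter of 1 FPKM through its 8-cell libraries, where it was high, so the counts at the 8-cell stage have no weight of their own. The MII libraries serve in both comparisons with the MII oocytes, and the 4-cell libraries in both comparisons that involve that stage. Over the 9090 genes, the median log2 fold change from the MII oocytes was 0.29 to the 4-cell and 0.37 to the 8-cell embryos, and it was 0.07 between the embryo stages, and single fold changes are to be read against these medians. In bulk samples such as these, fewer cells of a type and less RNA per cell cannot be told apart.

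**Figure D2:**
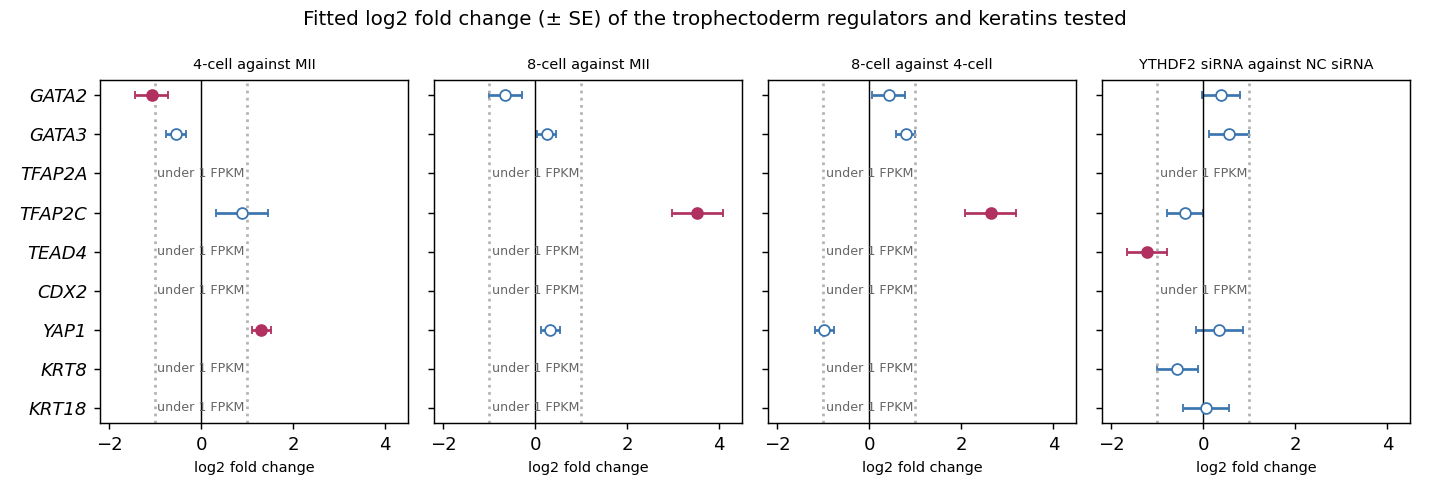
Fitted log2 fold changes (x axis) with their SE as bars, in 4 comparisons, for those of the 9 genes that averaged 1 FPKM or more in the libraries fitted. Filled red points were called (unadjusted p under 0.05 and more than 2-fold, outside the dotted lines), open points were not. *TFAP2C* at the 8-cell stage has the largest change of these genes, with 3.53 against the MII oocytes and 2.64 against the 4-cell stage.

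Among the Hippo effectors, *YAP1* was at 34.5, 24.5 and 26.5 FPKM in the MII oocytes, 83.3, 65.9 and 66.5 FPKM in the 4-cell stage embryos and 28.7, 39.6 and 40.2 FPKM in the 8-cell stage embryos. All 4-cell libraries lay above all other libraries, and the MII and 8-cell libraries overlapped. The mean was 28.5 ± 5.29 FPKM (SD, n = 3) in the MII oocytes, 71.9 ± 9.85 FPKM at the 4-cell stage, which is 2.52 times as high, and 36.2 ± 6.50 FPKM at the 8-cell stage. Its increase over the MII oocytes at the 4-cell stage was fitted as a log2 fold change of 1.31 ± 0.21 (SE, adjusted p = 0.00163). With libraries scaled to the same summed FPKM, to the same quantiles or to the fragments on the shared genes, it was 0.78, 0.88 and 0.77, with adjusted p of 0.0230 to 0.0278, and no longer more than 2-fold. In the 8-cell relative to the 4-cell embryos the value was -0.98 ± 0.21 (adjusted p = 0.0237), at the edge of the 2-fold limit and not called. It was -0.83 (adjusted p = 0.0439) when 8-cell replicate 1 was left out, and -1.06 to -1.03, and called, without 4-cell replicate 2 or 3 or 8-cell replicate 2 or 3. Between the 8-cell stage and the MII oocytes it was 0.33 ± 0.21 (adjusted p = 0.236), and its sign turned under each of the 4 other scalings tried (-0.19 to -0.04).

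*TEAD4*, the DNA-binding partner of YAP1, was close to absent from untreated material. It had 1 fragment in MII replicate 3, 1 fragment in 4-cell replicate 2 and none in the other 7 libraries. In the 8-cell libraries 3 fragments, taken as the limit that a count of 0 allows, would lie at 0.0373 to 0.0417 FPKM. This covers counting error only, and reads without molecular identifiers are not independent molecules. The log2 ratio of *TEAD4* to *YAP1* within a library, computed on FPKM + 1, lay between -6.40 and -4.67 in all 9 libraries, with *TEAD4* at or near 0 in each.

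The other TEAD factors and Hippo genes give the context of these values. *TEAD1* was at 4.86 to 5.73 FPKM in the MII oocytes, 4.96 to 6.94 FPKM at the 4-cell and 5.66 to 7.39 FPKM at the 8-cell stage, and so was the highest TEAD factor in every untreated library, with *TEAD2* and *TEAD3* under 1 FPKM except for *TEAD3* in 8-cell replicate 1 (2.06 FPKM). *WWTR1*, which encodes TAZ, the paralog of YAP1, stayed at 0.125 to 0.589 FPKM. Of 21 other Hippo pathway genes and TEAD partners, 14 were tested at the stages. At the 4-cell stage 2 were called up and none down, with a median log2 fold change of 0.28 against 0.29 for all genes. They were *LATS1*, a kinase that phosphorylates YAP1 (1.43 ± 0.20, adjusted p = 0.00100), and *MOB1A*, an activator of the LATS kinases (1.23 ± 0.17, adjusted p = 0.000847). At the 8-cell stage 1 of the 14, the upstream kinase *STK4*, was called up against the MII oocytes (1.11 ± 0.30, adjusted p = 0.0160). The calls of *MOB1A* and *STK4* were lost under the 4 other scalings and that of *LATS1* under 2 of them, with every sign kept, and that of *STK4* also without 8-cell replicate 3 (0.93).

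**Figure D3:**
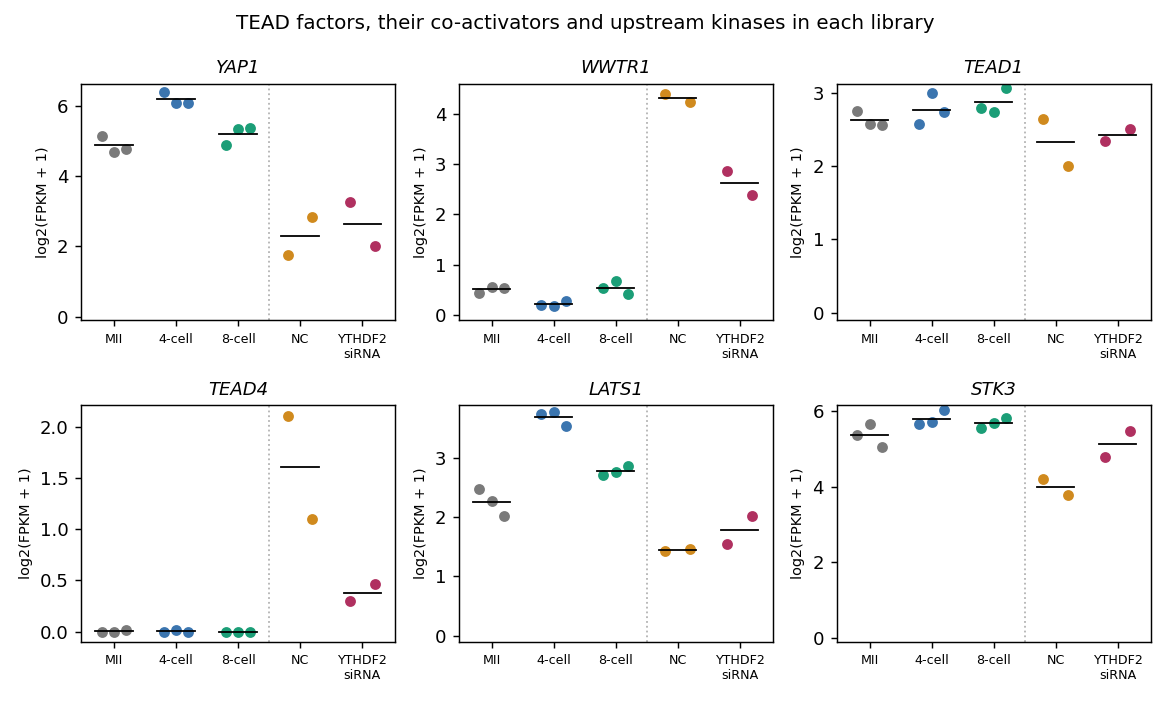
Levels of *YAP1*, its paralog *WWTR1*, the DNA-binding partners *TEAD1* and *TEAD4* and the kinases *LATS1* and *STK3* in each of the 13 libraries, as log2(FPKM + 1) with a separate axis for each gene. Points are libraries, bars are group means, and the dotted line parts the untreated from the injected libraries. *WWTR1* is at 0.125 to 0.589 FPKM in untreated material and at 17.9 and 19.9 FPKM in the NC libraries, while *YAP1* is at 2.34 and 6.16 FPKM there.

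*CDX2*, a homeobox factor of the trophectoderm, was at most at 0.194 FPKM in untreated material. Its 9 libraries held 28 fragments in all, from 0 to 10 per library, and 5 of them held 3 or fewer. The highest value was that of 8-cell replicate 1, and the 3 stages overlapped. The MII, 4-cell and 8-cell libraries held 5, 6 and 17 fragments of *CDX2*, which was under the filter, so a difference between stages was not tested.

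Both GATA factors were present in the oocyte and had their lowest mean of the untreated stages at the 4-cell stage. For *GATA2* this rank rested on 8-cell replicate 1, without which the log2 fold change between the embryo stages was -0.0095. *GATA2* was at 2.59, 1.89 and 2.23 FPKM in the MII oocytes, 0.619, 0.736 and 0.275 FPKM at the 4-cell stage and 2.72, 0.467 and 0.575 FPKM at the 8-cell stage. All 4-cell libraries lay below all MII libraries, and the 8-cell libraries were split, with replicate 1 above every MII value and the other two within the 4-cell range. The mean was 2.24 ± 0.351 FPKM (SD, n = 3) in the MII oocytes and 0.543 ± 0.239 FPKM at the 4-cell stage, or 4.12 times lower. The fitted log2 fold change was -1.07 ± 0.36 (SE, adjusted p = 0.0476, and 0.0986 with no filter on low values), and the call was lost without MII replicate 1 (-0.997, adjusted p = 0.144) or without 4-cell replicate 3 (-0.94, adjusted p = 0.142). Against the MII oocytes the 8-cell value was -0.65 ± 0.36 (adjusted p = 0.184), and when 8-cell replicate 1, the library that stood apart, was left out it came to -1.08 (adjusted p = 0.00480) and was called. Its adjusted p was also under 0.05 with median-ratio, quantile or shared-gene scaling, at values of -1.003 to -0.92, of which the last scaling, at -1.003, passed the 2-fold limit.

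*GATA3* was at 4.53, 4.04 and 5.03 FPKM in the MII oocytes, 2.19, 3.04 and 3.18 FPKM at the 4-cell stage and 5.10, 5.63 and 5.93 FPKM at the 8-cell stage. The libraries of the 3 stages did not overlap, with the 4-cell stage lowest and the 8-cell stage highest, though 8-cell replicate 1 and MII replicate 3 differed by little. None of the comparisons passed the 2-fold limit. The log2 fold change was -0.55 ± 0.21 (adjusted p = 0.0748) between the MII oocytes and 4-cell embryos and 0.79 ± 0.21 (adjusted p = 0.0483) between both embryo stages. Against the MII oocytes the 8-cell value was 0.25 ± 0.21 (adjusted p = 0.385), and its sign turned under each of the 4 other scalings (-0.20 to -0.07).

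Within a library, the log2 ratio of *GATA3* to *GATA2*, computed on FPKM + 1, was 0.78 on average in the MII oocytes, 1.30 in the 4-cell and 1.68 in the 8-cell libraries. The 4-cell ratios all lay above the MII ratios (difference 0.53, exact two-sided permutation p = 0.1, the smallest that 3 against 3 libraries can give). Over the 12 ratio tests made here the Benjamini-Hochberg adjusted p was 0.171. Between the 8-cell stage and the MII oocytes the difference was 0.90, with overlapping libraries (exact permutation p = 0.3, adjusted p = 0.4). The overlap came from 8-cell replicate 1 (0.71, against 2.18 and 2.14 in replicates 2 and 3), without which the difference was 1.38. The size of these differences depended on the pseudocount, and with 0.1 in place of 1 they were 1.24 for the 4-cell and 1.47 for the 8-cell libraries.

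The AP-2 factor *TFAP2C* appeared during cleavage. It was at 0, 0.0399 and 0 FPKM in the MII oocytes, 0.0245, 2.66 and 0.760 FPKM in the 4-cell stage embryos and 10.5, 23.2 and 4.70 FPKM in the 8-cell stage embryos. Behind these values lie 6 fragments in all in the MII oocytes, 3, 305 and 93 fragments in the 4-cell libraries, and 1218, 2722 and 608 fragments in the 8-cell libraries. Every 8-cell library lay above every earlier one, while 4-cell replicate 1 was still within the MII range. The mean rose to 12.8 ± 9.47 FPKM (SD, n = 3) at the 8-cell stage, from 1.15 ± 1.36 FPKM at the 4-cell stage, which is 11.2 times as high. The fitted log2 fold change was 3.53 ± 0.56 (SE, adjusted p = 0.00125) against the MII oocytes and 2.64 ± 0.56 (adjusted p = 0.0247) against the 4-cell stage. *TFAP2C* passed the filter of 1 FPKM through its 8-cell libraries, and with no filter on low values the adjusted p were 0.00473 and 0.0533. At the 4-cell stage itself *TFAP2C* was at 0.89 ± 0.56 against the MII oocytes (adjusted p = 0.262), and with a pseudocount of 0.1 in place of 1 it was called (2.57, adjusted p = 0.0815). Without any 1 of the 9 libraries the 8-cell values were 3.00 to 4.04 against the MII oocytes and 2.11 to 3.15 against the 4-cell stage. All stayed called, though the adjusted p of the second reached 0.0870. Without 8-cell replicate 1, the library that stood apart, they were 3.54 (adjusted p = 0.00209) and 2.65 (adjusted p = 0.0393).

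*TFAP2A*, the other AP-2 factor, was at 0.402, 0.581 and 0.530 FPKM in the MII oocytes, 0.295, 1.05 and 0.683 FPKM at the 4-cell stage and 1.29, 1.31 and 0.685 FPKM at the 8-cell stage. It rested on 29 to 123 fragments per library, so it was low but detected in all 9. The 8-cell libraries all lay above the MII libraries and overlapped with the 4-cell libraries. Its mean over the 9 libraries was under 1 FPKM and it was not tested. *TFAP2A* thus exceeded *TFAP2C* in every MII library and in 4-cell replicate 1, and *TFAP2C* exceeded *TFAP2A* in the other 5 embryo libraries. The log2 ratio of *TFAP2C* to *TFAP2A* averaged -0.57 in the oocytes, 0.19 in the 4-cell and 2.49 in the 8-cell libraries. The 3 groups did not overlap, and each of the 3 differences reached an exact permutation p of 0.1, the smallest possible, with an adjusted p of 0.171. With *TFAP2C* at or near 0 in the MII oocytes, the ratio there restates *TFAP2A* and the pseudocount, and with 0.1 in place of 1 the differences from the oocytes went from 0.76 to 2.34 at the 4-cell and from 3.06 to 5.62 at the 8-cell stage.

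Over the 9 untreated libraries *TFAP2A* ordered the libraries much as *TFAP2C* did (Pearson's r = 0.90, Spearman's rho = 0.93). These points share 3 stages and the scaling of each library, so the values describe the libraries and no test is given. The genes with the most similar pattern to *TFAP2C* among 9089 others were *NANOG*, a pluripotency factor (r = 0.997), and the zinc finger genes *ZNF394* (0.991) and *ZNF131* (0.989). For *GATA3* the most similar were *TFAP2D* (0.983), a further AP-2 gene, *EXT1* (0.970) and *IQCK* (0.962). For *GATA2* they were *SP2* (0.981), *NOL6* (0.975) and *SLC15A4* (0.973), and for *YAP1* they were *NOL8* (0.988), *DSCC1* (0.981) and *ACTR3* (0.979).

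**Figure D4:**
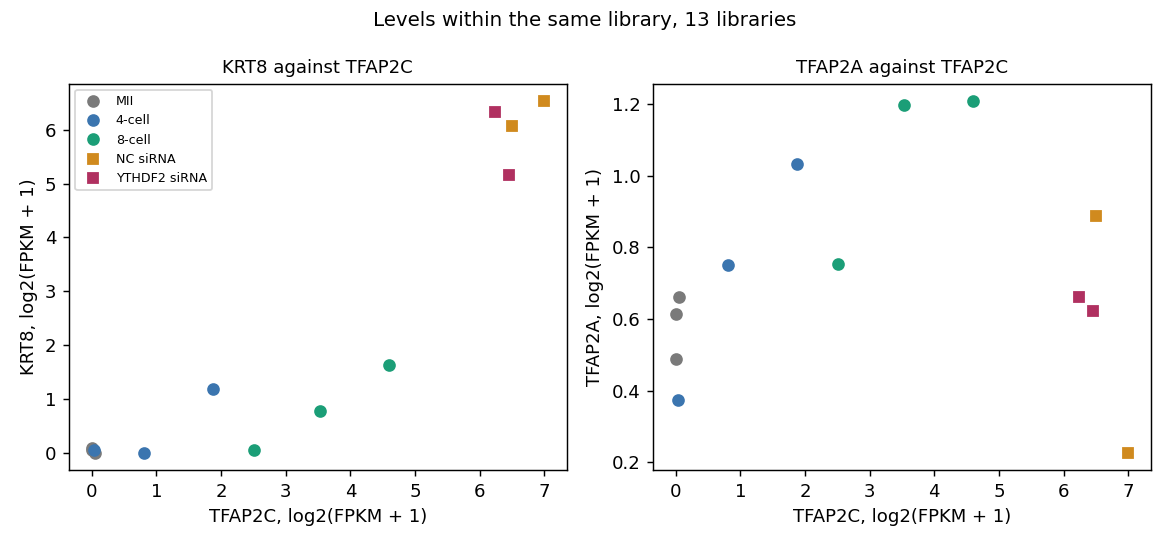
Levels of *KRT8* (left, y axis) and *TFAP2A* (right, y axis) against *TFAP2C* (x axis) in the same 13 libraries, all as log2(FPKM + 1). Circles are untreated libraries and squares are injected 8-cell stage embryos, normalized apart. *KRT8* is highest among the untreated libraries in 8-cell replicate 2, where *TFAP2C* is at 23.2 FPKM. *TFAP2A* is nearly equal in 8-cell replicates 2 and 1 (1.31 and 1.29 FPKM), though *TFAP2C* is at 10.5 FPKM in replicate 1. In the injected libraries *KRT8* is at 34.5 to 91.4 FPKM while *TFAP2A* is at 0.17 to 0.85 FPKM.

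The keratins were nearly silent in untreated material. *KRT8* was at 0.0650, 0 and 0.0393 FPKM in the MII oocytes, 0.0387, 1.28 and 0 FPKM at the 4-cell stage and 0.717, 2.105 and 0.0367 FPKM at the 8-cell stage. Only 3 libraries held more than 4 fragments of it, 62 in 4-cell replicate 2 and 35 and 104 in 8-cell replicates 1 and 2, while 8-cell replicate 3 held 2. Replicates therefore differed by more than the stages did. At both embryo stages *KRT8* was highest in the library with the highest *TFAP2C*, and over the 9 libraries *KRT8* and *TFAP2C* gave r = 0.80 and rho = 0.39, so the rank order was far less alike than the values.

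*KRT18* was at 0.0375, 0.0727 and 0.0603 FPKM in the MII oocytes, 0.0223, 0 and 0.112 FPKM at the 4-cell stage and 0 in all 3 libraries of the 8-cell stage. The 9 libraries held 16 fragments in all, and at the 8-cell stage a count of 0 allows up to 0.0634 to 0.0708 FPKM. The log2 ratio of *KRT18* to *KRT8*, again on FPKM + 1, averaged 0.03 in the oocytes, -0.35 in the 4-cell and -0.82 in the 8-cell embryos, where it restates *KRT8* alone, since *KRT18* is at 0 in all 3 libraries. The genes of keratins 8 and 18 have processed copies in mammalian genomes, and only uniquely mapped reads were counted, so reads of near-identical copies may be lost from either. In the later release of the goat assembly *KRT18* lies directly beside *KRT8*, with *EIF4B* on its other side and *KRT78* on the other side of *KRT8*. *EIF4B* was at 12.7, 15.6 and 28.8 FPKM on average in the MII oocytes, 4- and 8-cell stage embryos, and *KRT78* was under 0.3 FPKM at each.

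The other lists of trophectoderm and epithelial genes were described by their counts. Of 24 other trophectoderm factors 8 were tested at the stages. *ID2*, an inhibitor of helix-loop-helix factors, rose from 1.94 FPKM in the MII oocytes to 101 FPKM at the 4-cell stage (log2 fold change 5.63, adjusted p = 0.000219) and to 380 FPKM at the 8-cell stage (7.53, adjusted p = 2.98e-05). Its MII libraries were at 0.232, 0.0817 and 5.49 FPKM, and without MII replicate 3 the log2 fold changes were 6.46 and 8.36. *KLF5*, a Krüppel-like factor, rose from 0.781 to 3.54 FPKM by the 8-cell stage (1.34, adjusted p = 0.00200), and *BMP4*, a signalling ligand, rose from 1.69 to 6.73 FPKM between the 4- and 8-cell stages (1.65, adjusted p = 0.0317). The median log2 fold change of the 8 was 0.11 at the 4-cell stage, under the median of all genes (0.29), and 0.52 at the 8-cell stage against 0.37.

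Of the other epithelial keratins and vimentin 1 of 9, vimentin itself, was tested at the stages and called up by the unadjusted p alone at the 8-cell stage against MII (1.26, adjusted p = 0.0894). The groups overlapped, since *VIM* was at 0.0613, 0.0595 and 2.63 FPKM in the MII oocytes and at 2.49, 2.15 and 4.09 FPKM at the 8-cell stage. Of 11 desmosome and keratin linker genes 3 were tested and none called in any stage comparison, where up calls made up 4.55 to 19.8% of all tested genes. Of 12 tight junction genes 9 were tested, and *CGN*, the junction plaque protein cingulin, was called down in the 8-cell embryos against MII (-1.13, adjusted p = 0.0451), a call lost without MII replicate 1, 8-cell replicate 2 or 8-cell replicate 3 (-1.05 to -0.88, adjusted p of 0.123 to 0.147). Among 13 polarity and adherens junction genes tested, the cell adhesion gene *CDH1* was decreased at the 4-cell (-1.10, adjusted p = 0.00831) and 8-cell stage (-1.53, adjusted p = 0.00125), and *EZR*, a linker of membrane and actin, at the 4-cell stage (-1.79, adjusted p = 0.0345). The polarity scaffold genes *MPP5* (1.56, adjusted p = 0.000246) and *DLG1* (1.51, adjusted p = 0.000476) were increased at the 4-cell stage, the latter not past 2-fold with shared-gene scaling (0.99), and the polarity kinase *PRKCZ* at the 8-cell stage (1.48, adjusted p = 0.0265). Of 3 sodium pump genes tested from the list of blastocoel pumps and channels, *ATP1B3* was increased at the 4-cell (1.11, adjusted p = 0.00534) and 8-cell stage (1.03, adjusted p = 0.00600), calls that were lost under the 4 other scalings, and *ATP1B1* was decreased at the 4-cell stage (-1.03, adjusted p = 0.0196). Without MII replicate 1 the *ATP1B3* calls (0.88 and 0.80) and the *ATP1B1* call (-0.90) were lost, the 8-cell call of *ATP1B3* also without 8-cell replicate 2 or 3 (0.98 each), and the 4-cell call of *CDH1* without 4-cell replicate 3 (-0.95). With no filter on low values the adjusted p rose above 0.05 for *EZR* (0.0810), *CGN* (0.0933), *PRKCZ* (0.0628) and *BMP4* (0.0679).

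Markers of other cells were measured beside these genes. The summed level of 12 listed cumulus and granulosa markers was 79.6 to 100.2 FPKM in the MII oocytes, 84.1 to 90.9 FPKM at the 4-cell and 128 to 171 FPKM at the 8-cell stage, with *HAS2* (1.31, adjusted p = 0.000746) and *CYP19A1* (1.02, adjusted p = 0.00660) called up at the 8-cell stage. MII replicate 3, the oocyte library with the higher *ID2* and *VIM*, also stood apart in part of this list, with the cumulus genes *TNFAIP6* at 19.3 FPKM, *PTX3* at 2.35 FPKM and *PTGS2* at 0.576 FPKM, against at most 1.25, 0.0615 and 0.188 FPKM in the other MII libraries. *HAS2* (8.15 FPKM) and *CYP19A1* (0.292 FPKM) were instead lowest of the MII libraries there. *TNFAIP6* was as high in 8-cell replicates 2 and 3 (19.5 and 19.8 FPKM). *FSHR*, a defining granulosa gene, was at 0 in 6 of the 9 libraries and highest in MII replicate 3, at 0.248 FPKM. Oocyte markers summed to 1463, 2587 and 1467 FPKM in the MII oocytes, 2201 to 3411 FPKM at the 4-cell and 2509 to 2846 FPKM at the 8-cell stage. MII replicate 2 stood apart from the other MII libraries, also in single markers such as *ZP3* (211 against 52.7 and 64.3 FPKM) and *FIGLA* (16.8 against 4.88 and 3.46 FPKM). Of 9 oocyte markers tested, *GDF9* was called up (1.11, adjusted p = 0.0138) and *FIGLA* down (-1.47, adjusted p = 0.0442) at the 4-cell stage, and *FIGLA* down at the 8-cell stage (-1.43, adjusted p = 0.0417). By the unadjusted p, 2 of the 9, *FIGLA* included, were called down at the 8-cell stage against MII and 1 against the 4-cell stage. Both *FIGLA* calls were lost without MII replicate 2 (-0.87 and -0.83), and the second also without 8-cell replicate 3 (-1.19), and with no filter the adjusted p were 0.101 and 0.0895. The calls of *HAS2*, *CYP19A1* and *GDF9* were lost under the 4 other scalings, those of *CYP19A1* and *GDF9* also without MII replicate 1 or 3, and that of *CYP19A1* without 8-cell replicate 1 (0.92 to 0.99 in these fits). The part of these cells in the values of the 9 genes was not tested.

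The NC siRNA embryos are at the same stage as the untreated 8-cell stage embryos, and their table was normalized apart, so the values of the 2 experiments are set side by side without a test. *KRT8* was at 66.5 and 91.4 FPKM in the NC libraries, against 0.0367 to 2.105 FPKM in the untreated 8-cell libraries. The ratio of the means was 82.9, and 1.85% of 10483 genes averaging 1 FPKM or more had a log2 difference as large. *TFAP2C* was at 89.3 and 126 FPKM against 4.70 to 23.2 FPKM, a ratio of 8.42, and 8.18% of the genes had a difference as large. *KRT18* was at 2.86 and 5.11 FPKM, and *TEAD4* at 3.31 and 1.15 FPKM, where all untreated 8-cell libraries were at 0. Against the highest limit of 3 fragments in an untreated 8-cell library, the lower NC library was at least 40.4-fold higher for *KRT18* and at least 27.6-fold higher for *TEAD4*.

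*YAP1* stood on the opposite side, at 2.34 and 6.16 FPKM in the NC libraries against 28.7 to 40.2 FPKM, or 8.51 times lower on average, and 1.09% of the genes had a difference as far below 0. *GATA3* was at 2.25 and 1.21 FPKM against 5.10 to 5.93 FPKM, or 3.21 times lower. For *GATA2* (2.21 and 2.70 FPKM), *TFAP2A* (0.85 and 0.17 FPKM) and *CDX2* (0.32 and 0 FPKM) the NC and untreated 8-cell libraries overlapped. *KRT8*, *TFAP2C*, *TEAD4* and *KRT18* thus lay above and *YAP1* and *GATA3* below without overlap. Of the 10483 genes averaging 1 FPKM or more, 29.7% lay above and 24.6% below without overlap and by more than 2-fold, so such separation between the experiments was common. Only 6 of the 9 genes are in that set, 3 of them above (*TEAD4* is not in it) and 2 below.

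The genes around these showed how the 2 sets of 8-cell stage embryos differed. *WWTR1*, the paralog of *YAP1*, lay on the other side from it, at 19.9 and 17.9 FPKM in the NC libraries against 0.333 to 0.589 FPKM in the untreated 8-cell libraries, so that *YAP1* exceeded *WWTR1* in every untreated library and *WWTR1* exceeded *YAP1* in both NC libraries. *TEAD1* was at 5.25 and 3.00 FPKM in the NC libraries, and remained the highest TEAD factor there. *KLF5* was at 37.8 and 33.6 FPKM against 2.93 to 4.16 FPKM, and *GATA6*, a further GATA factor, at 27.0 and 23.8 FPKM against 0.160 to 0.575 FPKM. They were 2 of 3 that lay above among 11 other trophectoderm factors, and 2 lay below (median log2 difference 0.18), namely the AP-2 genes *TFAP2B*, at 3.07 and 1.24 FPKM against 14.6 to 21.3 FPKM, and *TFAP2D*, at 17.9 and 10.4 FPKM against 43.2 to 47.7 FPKM. Of the other lists, all 3 of the keratins and vimentin averaging 1 FPKM or more (*KRT10*, *KRT5* and *VIM*) and 3 of 4 blastocoel pumps and channels lay above without overlap and by more than 2-fold. Of 15 Hippo pathway genes and TEAD partners 3 lay above and 6 below, of 9 tight junction genes 2 and 4, of 15 polarity and adherens junction genes 3 and 4, and of 4 desmosome and keratin linkers 1 and 1. Oocyte markers moved with the difference, since 6 of 9 lay below and none above, and their summed level was 461 and 686 FPKM in the NC libraries against 2509 to 2846 FPKM. Of 6 cumulus and granulosa markers 3 lay below and none above (median log2 difference -1.07). The 1 sperm marker averaging 1 FPKM or more, *TNP2*, lay above. Sperm markers summed to 12.7 and 12.2 FPKM in the NC libraries against 0.419 to 0.746 FPKM, and *TNP2* alone held 11.1 and 11.9 FPKM of the NC sums. Their part in the values of the 9 genes was not tested. *EIF4B*, the neighbour of *KRT18*, was at 28.8 FPKM in the untreated and 70.1 FPKM in the NC embryos, and *KRT78*, the neighbour of *KRT8*, at 0.188 and 0.095 FPKM.

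After *YTHDF2* knockdown, 1 of the 7 genes tested, *TEAD4*, was called down compared to the NC embryos and none was called up. *TEAD4* passed the filter of 1 FPKM through the NC libraries, where it was high, so this count has no weight of its own. Of all 11004 tested genes 15.3% were called down and 9.48% up, and with an adjusted p under 0.05 in the same rule 5.92% down and 2.06% up, none of them among the 7. The share of all tested genes whose NC and knockdown libraries did not overlap was not computed. With 2 libraries per siRNA, a lack of overlap in single genes therefore has no weight of its own.

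*TEAD4* was at 3.31 and 1.15 FPKM in the NC libraries and at 0.23 and 0.38 FPKM in the knockdown libraries. The groups did not overlap, but the NC libraries differed from each other by more than the lower of them differed from the knockdown. The mean was 2.23 ± 1.53 FPKM (SD, n = 2) against 0.305 ± 0.106 FPKM, a ratio of 7.31. The fitted log2 fold change was -1.22 ± 0.44 (SE, limma adjusted p = 0.0888). The adjusted p ranged from 0.0306 to 0.243 over the alternatives tried. Without knockdown replicate 1 the value was -1.14 (adjusted p = 0.192) and not called, and without NC replicate 1 *TEAD4* fell under the filter of 1 FPKM. Its depth is unknown, since fragments were not recovered from the injected tables.

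*YAP1* was at 2.34 and 6.16 FPKM in the NC libraries and at 8.57 and 3.05 FPKM in the knockdown libraries, with overlapping groups (0.35 ± 0.52, adjusted p = 0.675). Without NC replicate 1 or knockdown replicate 1 its sign turned (-0.20 and -0.27). *WWTR1* was decreased from 19.9 and 17.9 FPKM to 6.23 and 4.25 FPKM (-1.69 ± 0.42, adjusted p = 0.0296), without overlap. The adjusted p was 0.173 with no filter on low values and reached 0.130 without single libraries. With the filter it was the 1 gene with an adjusted p under 0.05 of 14 Hippo pathway genes and TEAD partners tested, of which *STK3* (1.14, adjusted p = 0.106) and *LATS2* (-1.15, adjusted p = 0.151) were also called by the unadjusted p. *WWTR1* still exceeded *YAP1* in knockdown replicate 2 and no longer did in knockdown replicate 1. *TEAD1*, at 4.06 and 4.68 FPKM in the knockdown, had a log2 fold change of 0.10 ± 0.44 (adjusted p = 0.896).

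*TFAP2C* was at 89.3 and 126 FPKM in the NC libraries and at 74.3 and 87.0 FPKM in the knockdown libraries. Both knockdown values lay below both NC values, but by less than the spread of the fit (-0.40 ± 0.40, adjusted p = 0.518). *GATA3* was at 2.25 and 1.21 FPKM against 3.81 and 2.24 FPKM in the knockdown (0.56 ± 0.44, adjusted p = 0.401), and *GATA2* at 2.21 and 2.70 FPKM against 3.40 and 3.60 FPKM (0.38 ± 0.42, adjusted p = 0.556). The *GATA2* groups lay apart, which at 2 libraries per siRNA has no weight of its own, and those of *GATA3* overlapped. *TFAP2A*, at 0.85 and 0.17 FPKM in the NC and 0.58 and 0.54 FPKM in the knockdown libraries, was too low to be tested. *CDX2* was at 0.32 FPKM in NC replicate 1 and listed at 0 in the other 3 injected libraries.

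*KRT8* was at 66.5 and 91.4 FPKM in the NC libraries and at 79.1 and 34.5 FPKM in the knockdown libraries (-0.57 ± 0.45, adjusted p = 0.412). The value rested on knockdown replicate 2, without which it was 0.02, while without knockdown replicate 1 it was -1.15 (adjusted p = 0.105) and called by the unadjusted p. *KRT18* was at 2.86 and 5.11 FPKM against 6.99 and 2.21 FPKM (0.06 ± 0.50, adjusted p = 0.947), and both keratins were higher in knockdown replicate 1 than in knockdown replicate 2. *KRT8* exceeded *KRT18* in all 4 injected libraries, by a log2 ratio of *KRT18* to *KRT8* of -4.13 and -3.92 in the NC and of -3.33 and -3.47 in the knockdown libraries. On 2 against 2 libraries no permutation test can reach a p under 0.05, and these ratios are given as values.

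Of 9 other epithelial keratins and vimentin, 3 were tested in the knockdown. *KRT10*, a type I keratin known from the epidermis, was decreased from 17.5 and 10.3 FPKM in the NC to 1.43 and 0.79 FPKM in the knockdown libraries (-2.79 ± 0.45, adjusted p = 0.00418, but 0.173 with no filter on low values), and *KRT5*, a type II keratin known from basal epithelia, from 4.68 and 9.87 FPKM to 1.97 and 0.34 FPKM (-1.98 ± 0.50, adjusted p = 0.0296). Vimentin, the third of these, was at 23.4 and 25.7 FPKM against 12.1 and 12.6 FPKM (-0.94, adjusted p = 0.146). *DSC3*, a desmosomal cadherin, was decreased (-1.87 ± 0.46, adjusted p = 0.0276), 1 of 4 desmosome and keratin linker genes tested. Whether these values differ from those of *KRT8* and *KRT18* was not tested.

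Among 11 other trophectoderm factors tested in the knockdown, *KLF5* was decreased from 37.8 and 33.6 FPKM to 12.6 and 11.6 FPKM (-1.49 ± 0.41, adjusted p = 0.0397), and *GATA6* from 27.0 and 23.8 FPKM to 11.6 and 9.04 FPKM was called by the unadjusted p alone (-1.23 ± 0.41, adjusted p = 0.0767). None of the 11 was called up, and their median was -0.05. Of 7 tight junction genes *CLDN10*, a claudin, was increased (1.59, adjusted p = 0.0355) and *CLDN6*, another claudin, was called down by the unadjusted p alone (22.7 and 19.3 to 11.8 and 7.02 FPKM, log2 fold change -1.11, adjusted p = 0.110). Of 15 polarity and adherens junction genes *LLGL2*, a basolateral polarity gene, was increased (1.78, adjusted p = 0.0253) and *CTNNA1*, the gene of alpha-catenin, was called up by the unadjusted p alone (1.04, adjusted p = 0.128). None of 4 blastocoel pumps and channels was called. The distinction between calls with and without an adjusted p under 0.05 rests on the filter. With no filter on low values the adjusted p was 0.173 for *KLF5*, *CLDN10* and *LLGL2*, 0.184 for *DSC3* and 0.200 for *KRT5*. Without single libraries it reached 0.113 to 0.186 for these 5 genes and at most 0.0207 for *KRT10*, and all 6 stayed called by the unadjusted p.

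Oocyte markers moved with the knockdown too. Of 8 tested, 6 were called up by the unadjusted p and none with an adjusted p under 0.05, their median was 1.17, and their summed level was 461 and 686 FPKM in the NC against 898 and 1685 FPKM in the knockdown libraries. Knockdown replicate 2, which had the highest sum, also had the lower *KRT8*, *KRT18*, *YAP1*, *GATA3* and *WWTR1* of the 2 knockdown libraries, and the higher *TFAP2C*, *GATA2* and *TEAD4*. The summed cumulus and granulosa markers overlapped, at 73.2 and 110 FPKM in the NC and 94.6 and 105 FPKM in the knockdown libraries. Of 5 tested in that list (median 0.71), *HAS2* (10.2 and 10.7 FPKM in the NC, 20.6 and 23.3 FPKM in the knockdown libraries, adjusted p = 0.127) and *TNFAIP6* (1.09, adjusted p = 0.128) were called up by the unadjusted p alone. *KITLG*, a growth factor gene, was decreased (-1.58, adjusted p = 0.0432), with an adjusted p of 0.184 with no filter and the call lost without NC replicate 1 (-1.08, adjusted p = 0.215), and *FSHR* was listed at 0 in all 4. Sperm markers summed to 12.7 and 12.2 FPKM in the NC and 25.2 and 3.67 FPKM in the knockdown libraries, of which *TNP2* held 11.1 and 11.9 FPKM in the NC and 24.4 and 2.62 FPKM in the knockdown libraries. The part of these cells in the values of the 9 genes was not tested.

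Set in order over the 5 groups, *TFAP2C* and *KRT8* had their highest means in the NC embryos, followed by the knockdown, the untreated 8-cell, the 4-cell and the MII libraries, with overlap for *KRT8* between the NC and knockdown libraries and among the 3 untreated stages, and for *TFAP2C* between the 4-cell and MII libraries. *YAP1* ran from the 4-cell stage through the 8-cell stage and the MII oocytes, which overlapped, to the knockdown and NC embryos, which overlapped too. *GATA3* ran from the 8-cell stage through the MII oocytes to the knockdown, the 4-cell and the NC libraries, of which neighbours overlapped from the knockdown on. *GATA2* had its highest mean in the knockdown, followed by the NC and MII libraries, which overlapped. *KRT18* and *TEAD4* were above 1 FPKM on average in injected embryos alone, *KRT18* with both siRNAs and *TEAD4* with NC siRNA.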

How the data were processed

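Polyadenylated RNA of goat oocytes and pooled embryos was sequenced paired-end after Smart-seq2 amplification, so an mRNA was measured as far as it carried a poly(A) tail. The authors aligned reads to ARS1 with HISAT2 2.1.0, counted uniquely mapped reads with HTSeq and deposited FPKM values, with each library normalized on its own. No counts were used, all 13 value columns were used, and the injected values are rounded to 2 decimals. Whole fragments were recovered for 17916 of 17918 shared gene names above 0 from the FPKM steps of the untreated libraries, with which a gene at 3 fragments, the limit for a count of 0, was computed per library. Intervals and limits cover counting error only. Depth was not recovered for the injected libraries.

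limma 3.58.1 under R 4.3.3 was run on log2(FPKM + 1) for genes averaging 1 FPKM or more (lmFit, contrasts, eBayes with trend), the 9 untreated libraries in 1 fit and the 4 injected libraries in another. All adjusted p of single genes are Benjamini-Hochberg values of limma over all genes of the fit. Calls used an unadjusted p under 0.05 and more than 2-fold. The fits were tested on simulated data. Ratios of 2 genes were compared by exact two-sided permutation. No p is given between untreated and injected libraries. Python 3.11.15, numpy 2.4.6, pandas 2.3.3 and matplotlib 3.10.9 did the rest. The 9 genes, the lists and the tests were chosen with earlier results of these data known. Named are the 9 genes, *YTHDF2*, per list and comparison at most 3 rises and 3 falls among calls with an adjusted p under 0.05, and the 3 genes most like each tested one. Others were named after their values were seen: *STK3*, *LATS2*, *GATA6*, *VIM*, *TEAD1* to *TEAD3*, *EIF4B*, *KRT78*, *FSHR*, *PTX3*, *PTGS2*, *ZP3*, *TNP2*, *TFAP2B*, *TFAP2D*, *CLDN6*, *CTNNA1*, *TNFAIP6*, and *HAS2* in the knockdown. Same-numbered libraries did not deviate together (r = -0.51 to 0.20 between untreated and -0.15 between injected libraries), so the numbers were not taken as pairs. Differently numbered untreated libraries reached r = 0.51 (4-cell replicate 2 with 8-cell replicate 1). With 2 libraries per siRNA the injected r takes a single size with either sign, so it says little on pairing. Alternatives were other pseudocounts, filters, scalings, models, a replicate block and leaving out each library. Of the names, 99.9% had a symbol in a table for a later assembly release, from which neighbouring genes were taken and no coordinates. Sequences were not used here.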

Additional observations from a re-analysis of the deposited data

How the results depend on the processing

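All 16 values that changed sign belonged to results that had not been called. At the 8-cell stage against MII, *GATA3* was at -0.0705 and *YAP1* at -0.0387 with median-ratio rescaling, -0.11 and -0.0831 with the same summed FPKM, -0.13 and -0.0978 with quantile normalization, and -0.20 and -0.19 with the fragments on shared genes as the total. That scaling, the voom fit and the crossed pairing were chosen after seeing the data. Without single libraries, *GATA2* ran from -0.0095 (without 8-cell replicate 1) to 0.66 between the embryo stages. In the knockdown, *YAP1* ran from -0.27 (without knockdown replicate 1, and -0.20 without NC replicate 1) to 0.97, *KRT18* from -0.60 (likewise, and -0.27) to 0.72, and *KRT8* from -1.15 to 0.0196 (without knockdown replicate 2). The log2 ratio of *KRT18* to *KRT8* ran from -0.64 to 0.0341 (without 4-cell replicate 2) at the 4-cell stage, and that of *TEAD4* to *YAP1* was 0.0334 at the 8-cell stage with median-ratio rescaling. The cause of these was not tested.

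Of the 9 genes, 2 were called at the 4-cell stage against MII, 1 (*YAP1*) with a mean of at least 5 FPKM, 1 (*GATA2*) with the same summed FPKM, quantile or shared-gene scaling, 3 (*TFAP2C* added) with a pseudocount of 0.1, and 1 to 2 without single libraries. At the 8-cell stage against MII, 1 was called, 0 with a mean of at least 5 FPKM, which drops *TFAP2C*, 2 with shared-gene scaling (*GATA2* at -1.003), and 1 to 2 without single libraries. Against the 4-cell stage, 1 was called, 0 with a mean of at least 5 FPKM, 2 with median-ratio rescaling (*YAP1* at -1.06) and with voom (*GATA3* at 1.01), and 1 to 2 without single libraries. In the knockdown 1 was called, 0 with a mean of at least 5 FPKM or by the adjusted p, and 0 to 1 without single libraries. *TFAP2C* at the 8-cell stage stayed called in both comparisons under each alternative that tested it.

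Decreases made up 26.6% (4-cell) and 29.1% (8-cell) of calls against MII, but 49.3 and 50.9% with median-ratio rescaling (907 down and 934 up, 1168 and 1128, against 551 and 1518, 740 and 1804), 65.6 and 53.5% with the same summed FPKM (1177 and 616, 1219 and 1058), 51.7 and 52.7% with quantiles (927 and 866, 1221 and 1096), and 67.3 and 60.7% with shared-gene scaling (1241 and 604, 1394 and 901). Between the embryo stages decreases were 48.4% of calls, and 36.0% with the same summed FPKM. With a mean of at least 5 FPKM, 322 genes were called down at the 4-cell stage, 232 up between the embryo stages (414 before) and 1114 down in the knockdown (1685 before). By the adjusted p, 208 were up between the embryo stages, and 227 up and 651 down in the knockdown (1043 and 1685 before). Without 8-cell replicate 2, 818 were up between the embryo stages, and without NC replicate 2, 545 were up in the knockdown.

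Of 30 calls of list genes all kept their direction, and 7 to 9 were not called under the other scalings (of 22 with shared-gene scaling). Leaving out single libraries lost 6 of 22 without MII replicate 1, 4 without 8-cell replicate 3, 2 each without MII replicate 2, MII replicate 3 or 8-cell replicate 2, 1 each without 4-cell replicate 3 or 8-cell replicate 1, and 1 of 8 without NC replicate 1. With a replicate block the same numbers of the 9 genes were called (2, 1, 1 and 1), with 1516, 1770, 392 and 1014 genes up and 548, 739, 392 and 1674 down, while the adjusted p of *GATA2* at the 4-cell stage was 0.0542 and that of *TEAD4* 0.114. With the crossed pairing 1063 genes were up and 1747 down in the knockdown. Fragment counts of 0 to 10 per library limit *TEAD4*, *CDX2* and *KRT18* in untreated material, and 2 libraries per siRNA limit the knockdown.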
